A study of Mus musculus with 6 samples.

Results

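H3K4me3, the histone mark of active gene starts, was examined at 9 mouse genes of T cell adhesion and tissue residency: Itgae, Cd69, Itga1, Itgal, Itga4, Itgb1, Itgb2, Itgb7 and Selplg. They were taken by name out of 21887 protein-coding genes, and every H3K4me3 region overlapping the gene body or the 5 kb on either side was assigned to them. The wild-type list had 48546 regions, of which 27 were kept, and the Atg5 knockout list had 46565, of which 31 were kept. By their labels, both lists are from CD8+ lymphocytes that had infiltrated E0771 tumours, a mouse mammary tumour line, grown in C57BL/6 mice. One group of mice is labelled wild type and the other as carrying a Cre-mediated deletion of Atg5, a gene needed to build autophagosomes. Which promoter drove Cre, how old the mice were and whether animals were pooled is not given in the sources used here. The comparison asks whether H3K4me3 at these loci differed with the loss of Atg5. Each genotype had 1 library, so no difference below has a replicate check and no p-value is given.

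Integrins are surface receptors made of 1 alpha and 1 beta chain, and the pairing decides what the cell can hold on to. CD103, the product of Itgae, pairs with the beta chain from Itgb7 and binds E-cadherin on epithelial cells. The Itga1 chain pairs with that of Itgb1 and binds collagen, while the Itgal and Itgb2 chains form LFA-1, which binds ICAM proteins. The Itga4 chain pairs with either Itgb1 or Itgb7 for entry into inflamed tissue or gut. CD69 holds T cells in tissue by removing the egress receptor S1PR1 from the surface, and PSGL-1, encoded by Selplg, lets leukocytes roll on selectins.

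The covered length, the number of bp under H3K4me3 regions within the gene body plus 5 kb on either side, is the measure used below. Wild-type regions covered 71.3 Mb and knockout regions 73.1 Mb, with median region widths of 1103 and 1130 bp. Their sequencing depth is not stated in the lists. Genes that define T cells were little covered in the wild-type library, which goes against its CD8+ label. All 15 T cell marker genes were longer in the knockout, summing to 38049 wild-type bp and 265454 knockout bp, and Cd8a and Cd3e had no wild-type region at all. Per marker, 0 to 8120 bp were covered in the wild-type list, against 5228 to 47528 bp in the knockout list. In bulk chromatin, fewer cells of a type and less of the mark per cell cannot be told apart. With 1 library per genotype, no result can be given without the wild-type library.

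The adhesion and residency genes were covered more widely in the knockout list. Of the 9 genes, 8 had the longer coverage in the knockout, beside 46.7% of the 16415 protein-coding genes with coverage in either list. A gene was called longer if its knockout length plus 500 bp was at least 1.5 times its wild-type length plus 500 bp, and shorter if the reverse held. Ratios printed for single genes are of the plain lengths, without the 500 bp. By this rule 7 of 9 were called longer and 0 were called shorter, beside 12.6% and 9.83% of all genes. The median difference, knockout minus wild type, was 4580 bp for the 9 genes and -50 bp for all genes. Summed over the 9 genes, 37127 wild-type bp and 85020 knockout bp were covered. The T cell markers were also longer in the knockout (15 of 15 called), and their part in this difference was not tested. Within 2.5 kb of the gene start 4 of 9 were called longer and 0 shorter, beside 9.43% and 4.71% of genes, with a median difference of 1396 bp. These 4 were Itgae, Cd69, Itgal and Selplg, all among the 5 genes whose start was placed at the gene end with more coverage. Of the 4 genes with a start from RefSeq, 0 were called, and the part of this choice in the count was not tested.

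**Figure D1:**
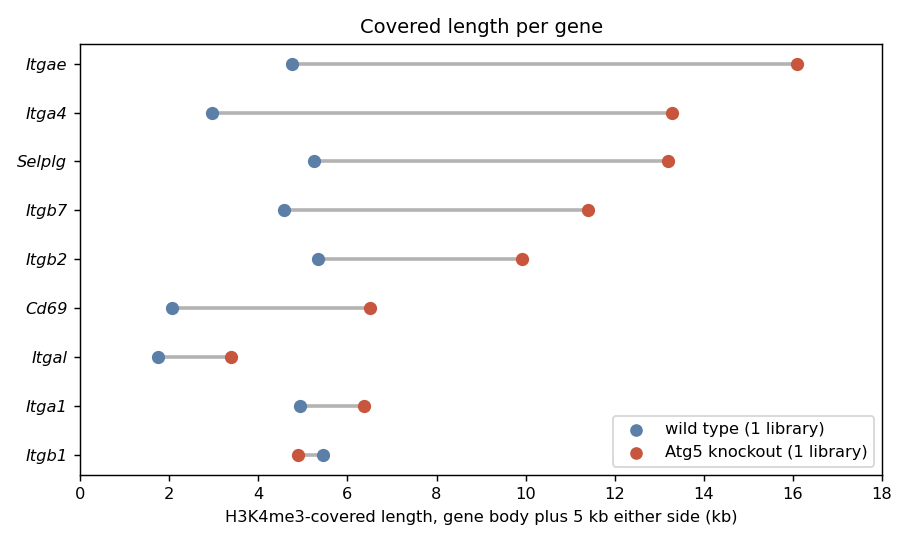
H3K4me3-covered length in kb (x axis, linear) for each of the 9 genes over the gene body plus 5 kb on either side, with 1 point per library. Itgae shows the widest gap, from 4757 to 16082 bp, and Itgb1 is the single gene with the lower value in the knockout.

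Itgae differed by the greatest length among the 9 genes. This gene (chromosome 11, 73090505 to 73147449, GRCm38) had 4757 wild-type bp and 16082 knockout bp, a ratio of 3.38. Its end of lower coordinate, taken as its start because more coverage lay there, had 0 wild-type bp and 2711 knockout bp within 2.5 kb. A single knockout region of 6844 bp ran from 210 bp before this start to 6633 bp into the gene, with its summit 332 bp inside. It was wider than 99.0% of the knockout list, and the authors' fold over background was 12.7. Most of the wild-type coverage at Itgae lay elsewhere, in a region of 3901 bp at Haspin, a mitotic kinase gene nested within Itgae. The knockout had 4206 bp there, with a summit 4 bp away, and the fold was 34.6 within the wild-type list and 32.3 within the knockout list. Without Haspin and 1 kb around it, 856 wild-type bp and 11876 knockout bp remained at Itgae. Both lists also held a short region 8.1 to 9.0 kb into the gene. The other 5 knockout regions, 334 to 1603 bp wide, met no wild-type region.

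Itgb7, the partner chain of CD103, was marked in both lists and more widely in the knockout. This gene (chromosome 15, 102215994 to 102233405) had 4584 wild-type bp and 11393 knockout bp. Every wild-type base at Itgb7 was also covered in the knockout, and 40.2% of the knockout bases were covered in the wild type. The region over the start was 3605 bp wide in the wild type, against 9403 bp wide in the knockout, where it exceeded 99.7% of regions in width. The knockout region reached 4454 bp before the start and 4948 bp past it. This RefSeq start, at 102231935, lies inside the annotated gene. Of the knockout region, 6419 bp lay within the gene and 2984 bp outside it. Its upstream part entered the neighbouring gene Rarg, a retinoic acid receptor. Over Rarg and 1 kb around it, 7620 wild-type bp and 10711 knockout bp were covered, and over the other neighbour, Zfp740, 2649 and 3833 bp. Without both neighbours Itgb7 had 4584 and 8941 bp. A second region, 5.7 to 7.6 kb past the start in the knockout, was 1990 bp wide, against 979 bp in the wild type.

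Cd69 had its summit at almost the same place in both lists. The gene (chromosome 6, 129267324 to 129275375) had 2073 wild-type bp and 6497 knockout bp, and all wild-type bases were covered in the knockout. Its wild-type regions of 1496 and 577 bp both lay under 1 knockout region of 5323 bp. The summit at the start, taken here as the end of higher coordinate, was 102 bp inside the gene in the wild type, against 126 bp inside in the knockout. The wild-type fold was 14.0, stronger by q-value than 66.9% of that list, and the knockout fold was 37.9, stronger than 91.1% of its own list. A further knockout region of 1174 bp, beyond the far end of the gene, had no wild-type counterpart.

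**Figure D2:**
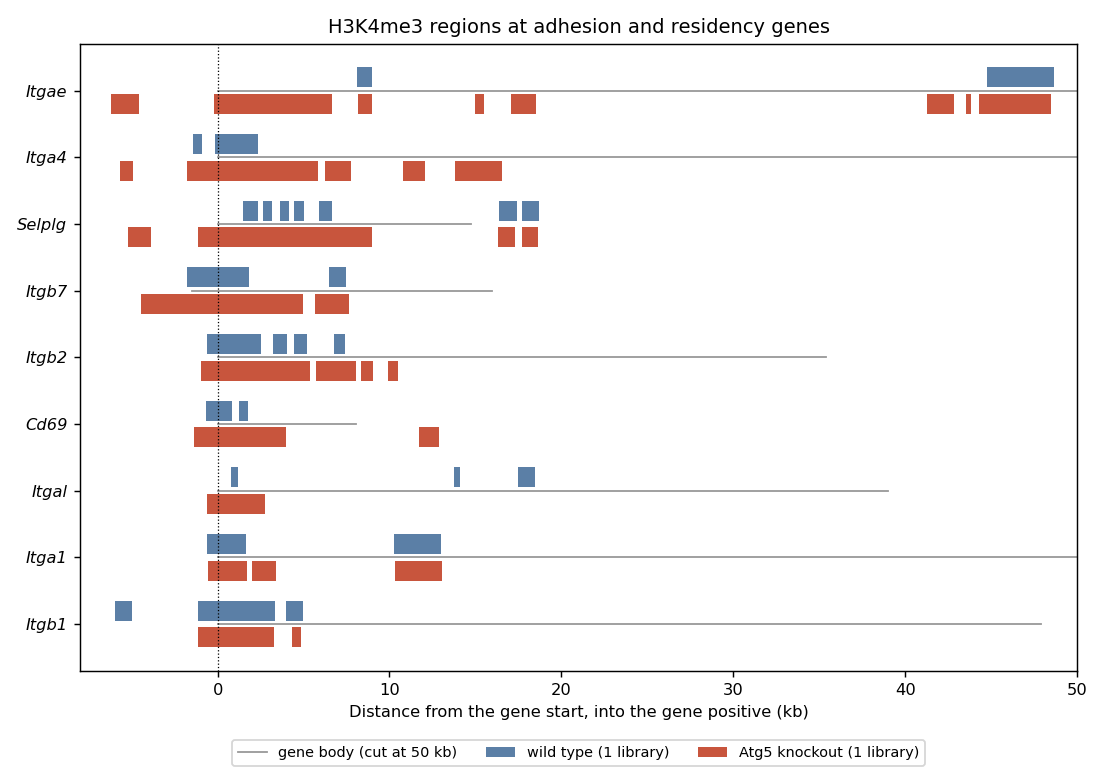
H3K4me3 regions of each list (bars, 1 library per genotype) against the distance in kb from the gene start, with positive values inside the gene and the grey line marking the gene body up to 50 kb. In the knockout the bars spread into the gene from the start of Itgae, Itga4, Selplg, Itgb7, Itgb2, Cd69 and Itgal. At Itga1 and Itgb1 the start regions are alike in width, and the Haspin region lies 44.7 to 48.6 kb into Itgae.

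The collagen receptor chains differed least. Itga1 (chromosome 13, 114958079 to 115101964) had 4947 wild-type bp and 6375 knockout bp, a ratio of 1.29 that was not called. The region over its start was 2258 bp wide in the wild type, against 2241 bp in the knockout, at folds of 21.1 and 19.9, each within its own list. A second shared region, 2689 and 2716 bp wide, lay at Pelo, a ribosome rescue gene nested within Itga1. Most of the difference lay in 1 knockout region of 1418 bp, 2.0 to 3.4 kb into the gene, with a fold of 4.42.

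Itgb1 (chromosome 8, 128685654 to 128733579), a beta chain used by many cell types, was the exception in direction. It had 5459 wild-type bp and 4897 knockout bp. The start region was 4446 bp wide in the wild type, against 4412 bp in the knockout, with folds of 47.8 and 39.0, and this wild-type region was stronger by q-value than 99.1% of its list. Most of the difference of 562 bp lay in a region 4.0 to 5.0 kb inside, which was 995 bp wide in the wild type, against 485 bp in the knockout. A wild-type region of 983 bp before the gene reached the window by its edge only and met no knockout region. Within 2.5 kb of the start the lists had 3615 and 3618 bp.

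The promoters of Itga1 and Itgb1 are printed as those of the genes whose start regions were alike in width. Both lists covered all 300 bases of each. Each sequence runs from 250 bases before to 50 bases after the RefSeq start (GRCm38.p6), that of Itgb1 at chr8:128685404-128685703 on the plus strand and that of Itga1 at chr13:115101915-115102214 on the minus strand. Capitals mark matches to any of 8 short motifs, each searched on both strands of the window. The motif of RUNX factors was searched as TGTGGT, that of ETS factors as CGGAAG, that of GATA factors as AGATAA and that of KLF and SP factors as GGGCGG. The E-box was searched as CAGCTG, the motif of T-box factors as TCACAC, that of AP-1 factors as TGAGTCA and the TATA box as TATAAA.
Itgb1: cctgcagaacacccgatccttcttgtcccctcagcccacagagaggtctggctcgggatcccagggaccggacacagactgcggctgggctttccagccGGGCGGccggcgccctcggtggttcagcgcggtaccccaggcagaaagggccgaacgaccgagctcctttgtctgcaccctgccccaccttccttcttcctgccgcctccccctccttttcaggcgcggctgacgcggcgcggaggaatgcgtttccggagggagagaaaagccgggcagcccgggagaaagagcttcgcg
Itga1: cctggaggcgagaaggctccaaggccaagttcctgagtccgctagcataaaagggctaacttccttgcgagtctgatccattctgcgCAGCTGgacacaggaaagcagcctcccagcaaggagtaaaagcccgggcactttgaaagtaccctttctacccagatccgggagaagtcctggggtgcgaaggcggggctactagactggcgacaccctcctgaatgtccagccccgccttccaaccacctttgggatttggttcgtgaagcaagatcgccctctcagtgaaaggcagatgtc
The Itgb1 promoter is rich in CpG, with 27 CpG in 300 bases and an observed to expected ratio of 0.80, against a median of 0.38 over 32851 RefSeq promoters. It held 1 KLF and SP motif, as do 35.7% of these promoters. The Itga1 promoter had 12 CpG and a ratio of 0.50, and held 1 E-box, found in 16.3% of promoters.

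The alpha and beta chains of LFA-1 were both called longer, but neither was at a ratio of 2. Itgal was also not called with no flank, and Itgb2 was not called within 2.5 kb of the start. Itgal (chromosome 7, 127296139 to 127335137) had 1754 wild-type bp and 3379 knockout bp, a ratio of 1.93. The 2 lists marked different parts of this gene. In the knockout there was 1 region, of 3379 bp over the end of lower coordinate, with its summit 523 bp inside the gene and a fold of 23.5. In the wild type that end held only a region of 415 bp with a fold of 3.45, among the weakest 6.6% of its list. Regions of 373 and 966 bp deep inside Itgal, 13.8 and 17.5 kb from that end, were called in the wild type but not in the knockout. As a result 23.7% of the wild-type bases were covered in the knockout.

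Itgb2, the beta chain shared by the leukocyte integrins, was marked in both lists at its start. This gene (chromosome 10, 77530329 to 77565708) had 5345 wild-type bp and 9925 knockout bp. All wild-type bases lay under knockout regions. The start region was 3123 bp wide in the wild type, against 6338 bp in the knockout, where it took in 3 of the 4 wild-type regions. Within its own list, each had a fold of 11.4 (wild type) or 25.4 (knockout). The next knockout region, 5.7 to 8.0 kb into the gene, was 2314 bp wide with a fold of 17.7, over a wild-type region of 621 bp with a fold of 3.66. Near the start the lists were closer, with 3109 and 3439 bp within 2.5 kb.

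Itga4 had the greatest ratio of the 9 genes. It (chromosome 2, 79255426 to 79333114) had 2955 wild-type bp and 13285 knockout bp, a ratio of 4.50. In the wild type, 2 weak regions of 492 and 2463 bp lay at the start, with folds of 3.90 and 4.94. A knockout region of 7624 bp, wider than 99.3% of its list and with a fold of 22.9, took in both. The other 4 knockout regions, at widths from 776 to 2705 bp, met no wild-type region, and 3 of them lay 6.2 to 16.5 kb into the gene. The neighbour Cerkl, whose body meets the far end of Itga4, had 7196 wild-type bp and 6164 knockout bp over its own length plus 1 kb, and none of this lay in the Itga4 window.

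The promoters of Itga4 and Itgb7 are printed as the counterpart of the pair above, since the regions over them were wider in the knockout list. The Itga4 sequence is at chr2:79255176-79255475 on the plus strand and that of Itgb7 at chr15:102231886-102232185 on the minus strand, with the same 8 motifs in capitals. The whole Itgb7 sequence lies inside the annotated gene.
Itga4: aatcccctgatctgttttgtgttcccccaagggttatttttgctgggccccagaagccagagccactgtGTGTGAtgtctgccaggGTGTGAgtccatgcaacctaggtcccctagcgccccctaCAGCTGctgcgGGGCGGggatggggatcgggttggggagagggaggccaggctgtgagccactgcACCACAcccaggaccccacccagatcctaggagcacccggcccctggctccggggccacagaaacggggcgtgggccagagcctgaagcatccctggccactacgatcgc
Itgb7: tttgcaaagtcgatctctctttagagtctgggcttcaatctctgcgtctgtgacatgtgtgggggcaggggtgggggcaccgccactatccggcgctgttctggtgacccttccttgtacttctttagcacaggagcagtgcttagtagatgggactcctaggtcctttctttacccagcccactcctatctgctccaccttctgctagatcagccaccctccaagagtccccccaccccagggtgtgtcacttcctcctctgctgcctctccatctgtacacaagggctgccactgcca
Of the 300 Itga4 bases, wild-type regions covered 176 and knockout regions 300, while all 300 of Itgb7 were covered in both. CpG were fewer than at Itgb1, with 10 at Itga4 (ratio 0.32) and 5 at Itgb7 (ratio 0.22), beside the median ratio of 0.38. The Itga1 promoter, with 12 CpG (ratio 0.50), was close to that of Itga4 in number. Itga4 held 1 match to the RUNX motif, on the other strand and 60 bases before the start, and 16.8% of promoters held this motif on either strand. It also held 2 matches to the T-box motif (14.5% of promoters), both on the other strand, 1 to the KLF and SP motif and 1 E-box. None of the 8 motifs was found in the Itgb7 window. The motifs of ETS, GATA and AP-1 factors and the TATA box, held by 16.9%, 11.2%, 5.20% and 13.6% of promoters, were in none of the 4 sequences.

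At Selplg, scattered weak regions in the wild type stood against 1 wide domain in the knockout. This gene (chromosome 5, 113817798 to 113832528) had 5253 wild-type bp and 13187 knockout bp, a ratio of 2.51. A knockout region of 10122 bp ran from 1111 bp before the end of higher coordinate, taken as the start, to 9010 bp into the gene, with its summit 53 bp inside and a fold of 21.6. It was the widest region at any of the 9 genes and exceeded 99.7% of its list. Beneath it the wild type had 5 regions of 514 to 835 bp, with folds from 2.99 to 4.68, the nearest 1506 bp from the start. Within 2.5 kb of the start the lists had 835 and 3612 bp. Beyond the other end of the gene, a pair of regions matched between the lists, at 1012 and 1046 bp in the wild type, against 937 and 975 bp in the knockout. The farther of the pair overlaps the lncRNA gene Gm42004.

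Seen by region, 24 of the 27 wild-type regions at these genes overlapped a knockout region by at least 1 bp (88.9%, exact 95% interval 70.8 to 97.6%), beside 73.3% of the whole wild-type list. Of the 31 knockout regions, 16 overlapped a wild-type region (51.6%, 33.1 to 69.8%), beside 76.0% of the whole knockout list. Regions at 1 locus are not independent, and these intervals cover counting error only. The 15 knockout regions without a counterpart were weaker within their list, with a median fold of 4.42 against 22.2 for the overlapping ones. Among the regions without a counterpart was the 6844 bp region at the Itgae start. Widths ran from 373 to 4446 bp in the wild type, against 334 to 10122 bp in the knockout, and 2 and 8 of these regions belonged to the widest 5% of their lists.

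As a share of the window, the knockout covered 53.3% at Selplg, 41.6% at Itgb7, 36.0% at Cd69, 24.0% at Itgae and 21.9% at Itgb2. It covered 15.2% at Itga4, 8.45% at Itgb1, 6.90% at Itgal and 4.14% at Itga1. These shares also depend on gene length, since the windows ran from 18052 bp at Cd69 to 153886 bp at Itga1. In the wild type the order was Selplg at 21.2%, Itgb7 at 16.7%, Itgb2 at 11.8%, Cd69 at 11.5%, Itgb1 at 9.42%, Itgae at 7.11%, Itgal at 3.58%, Itga4 at 3.37% and Itga1 at 3.21%. Selplg and Itgb7 led in both lists, and Itga1, with the longest window, was last in both. Without replicates, neighbours in either order cannot be separated.

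For each member, the gene nearest to it in these 2 percentages over the 2 libraries was found. It was Dipk1a for Itgae, Olig3 for Cd69, Igf2bp3 for Itga1, Phf11a for Itgal, Lonp2 for Itga4, Lancl2 for Itgb1, Mbd2 for Itgb2, Arhgdib for Itgb7 and Fxyd5 for Selplg. The distances ran from 0.0031 percentage points for Lancl2 to 0.48 for Dipk1a. Fxyd5 had 21.2% covered in the wild type, against 53.0% in the knockout, and Arhgdib 16.4% and 41.6%. This likeness rests on 2 values per gene. The search ran over the 16415 genes with coverage, less predicted genes with symbols of Gm and a number or ending in Rik.

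**Figure D3:**
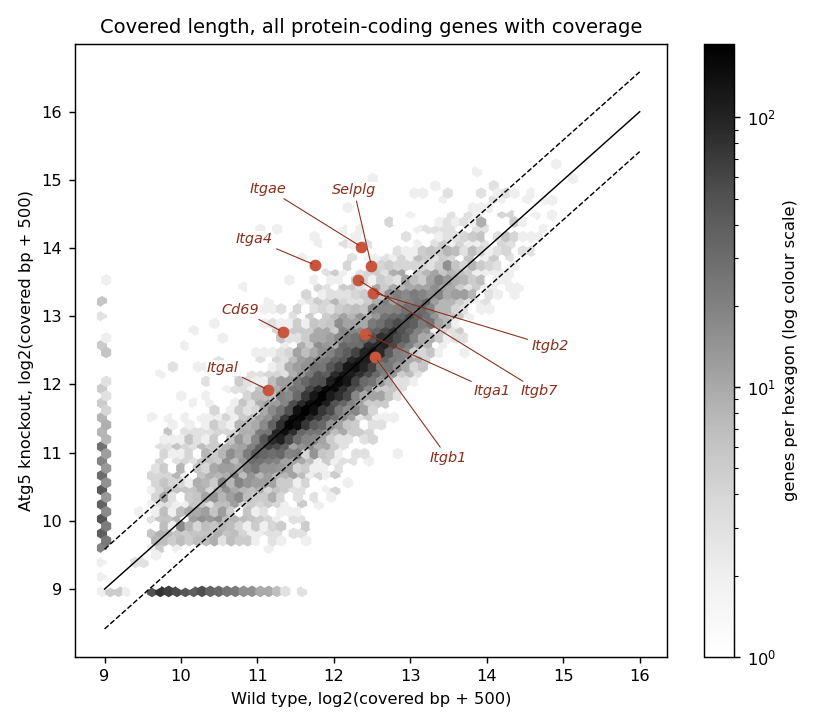
Covered length in the knockout against the wild type for the 16415 protein-coding genes with coverage, both axes as log2(bp + 500), with grey hexagons shaded by the number of genes, the solid line at equality and the dashed lines at a ratio of 1.5. Itgae, Itga4, Selplg, Itgb7, Itgb2, Cd69 and Itgal lie above the upper dashed line, while Itga1 and Itgb1 lie between the dashed lines.

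Related gene lists were compared by the same rule, again beside 12.6% of all genes called longer and 9.83% called shorter, and with all 15 T cell markers called longer in the same pair of libraries. Of 19 other integrin subunit genes, 7 were longer and 12 shorter in the knockout, with a median difference of -581 bp, and 4 were called longer and 2 shorter. Itgb6, an epithelial beta chain, had 6826 wild-type bp and 1558 knockout bp. Itga6, a laminin receptor chain, had 6838 and 11967 bp and was called longer. The fibronectin receptor chain Itga5 had 12109 and 8526 bp, and Itgb5, a vitronectin receptor chain, had 13070 and 9345 bp, and neither was called. The myeloid chains Itgam and Itgax had 3512 and 4898 bp and 1620 and 1793 bp, without a call, and both also stand in the myeloid list below.

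Among the 12 ligand and selectin genes, 2 were called longer and 1 shorter, with a median difference of 386 bp. Fn1, which encodes fibronectin, had 4432 wild-type bp and 2145 knockout bp. Selp, the P-selectin bound by PSGL-1, had 3589 and 5739 bp. Cdh1, the E-cadherin bound by CD103, had 7586 and 8824 bp and was not called.

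Of 18 genes that switch integrins on, 10 were called longer and 3 shorter, with a median difference of 4469.5 bp. Rap1b, the small GTPase that signals to integrins, had 6214 wild-type bp and 16337 knockout bp. Rassf5, a Rap1 effector that acts on LFA-1, had 10303 and 24566 bp. The adaptor gene Fyb had 17753 and 43203 bp, and Cyth1, whose product binds the beta chain of LFA-1, had 12660 and 41068 bp. The 3 called shorter were Tln2, Fermt2 and Fermt1, named after their values were seen. The leukocyte kindlin gene Fermt3, also named after its values were seen, had 4184 and 5075 bp, and the talin gene Tln1 had 6011 and 6155 bp.

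Of 14 regulators of residency and of exit from tissue, 13 had more knockout than wild-type coverage. By the ratio, 8 were called longer and 0 shorter, with a median difference of 4479 bp. Runx3, a transcription factor of CD8 and resident T cells, had 3944 wild-type bp and 18464 knockout bp. The chemokine receptor gene Cxcr6, a mark of resident cells, had 833 and 12541 bp. Of the genes of exit and recirculation in this list, S1pr1 had 2690 and 8952 bp and Ccr7 2612 and 12861 bp, and both were called longer. S1pr5, Klf2 and Klf3, named after their values were seen, had 4324 and 4650 bp, 4901 and 6146 bp, and 9992 and 15125 bp, and none of these was called. Of 10 genes that build or sulphate the glycans of PSGL-1, 2 were called longer and 0 shorter. These were the galactosyltransferase gene B4galt1, with 11454 and 22073 bp, and the sulphotransferase gene Tpst2, with 7594 and 18213 bp. St3gal6 had 6819 and 8378 bp and Gcnt1 7039 and 5857 bp, and neither was called.

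**Figure D4:**
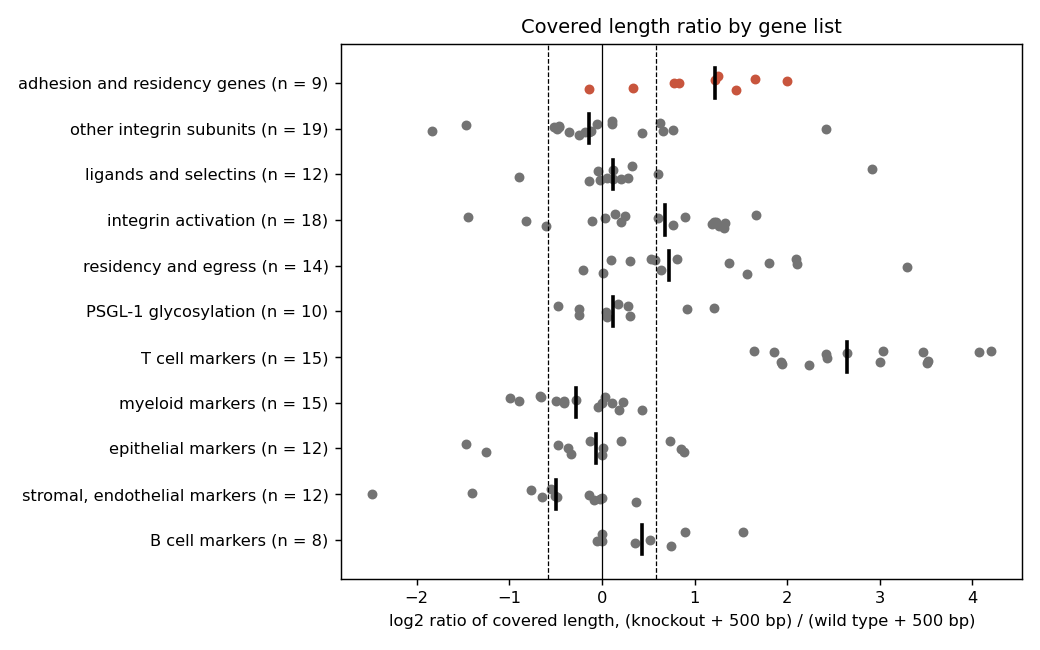
The log2 ratio of covered length, knockout plus 500 bp over wild type plus 500 bp, for each gene (points) of each list, with the list median as a black bar and dashed lines at a ratio of 1.5. The 9 adhesion and residency genes have a median of 1.23, between the T cell markers at 2.65 and the other integrin subunits at -0.14.

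Regions at marker genes of tumour, stromal and other immune cells were present in each list. Among the T cell markers, Bcl11b had 7170 wild-type bp and 47528 knockout bp, Cd247 8120 and 30803 bp and Tcf7 3997 and 23631 bp. The 15 myeloid genes summed to 61319 wild-type bp and 54623 knockout bp, with 0 called longer and 4 shorter, and C1qa was uncovered in both. Mrc1 had 3742 and 1635 bp, Fcgr1 4041 and 1945 bp, Csf1r 3726 and 2160 bp and Cebpb 6942 and 4773 bp. The 12 stromal and endothelial genes summed to 56106 and 44061 bp, with 0 called longer and 4 shorter. Cdh5 had 8133 and 2776 bp, Tie1 2583 and 53 bp and Col3a1 7044 and 3936 bp, while Pecam1 had 12614 and 16437 bp, and Tek was uncovered in both. The 12 epithelial genes summed to 27288 and 27926 bp, with 3 called longer and 2 shorter. Ehf had 2432 and 565 bp, Esrp1 1417 and 3033 bp and Cldn7 1454 and 3026 bp, and Krt19 was uncovered in both lists and Krt7 in the knockout. The 8 B cell genes summed to 13521 and 20165 bp, with 3 called longer and 0 shorter. Cd79a had 4731 and 6971 bp, Ebf1 1456 and 3151 bp and Cd79b 1917 and 3543 bp, and Ms4a1 and Cd22 were uncovered in both lists. The part of these cell types in the differences at the adhesion genes was not tested.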

How the data were processed

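Native ChIP-seq with micrococcal nuclease, per the labels' protocols, was carried out for H3K4me3, H3K27me3 and input in each genotype. Of these 6 samples the 2 H3K4me3 libraries were used, and the others were not analysed here. Per the submitters' processing notes, MACS2 called the peaks on GRCm38. Its version and settings, the aligner, the filters and the use of input are, for both lists, not given in the sources used here. The deposited fold is a ratio of reads at the summit to background reads. For most regions drawn in the closing section, this background was 1 genome-wide value of the library. Deposited −log10 values of p and of q are given for each summit as well, with a lowest −log10 q of 2.00 (wild type) and 2.02 (knockout). The deposited score was not used. These values are the authors' own, and in the report they describe or rank regions within 1 list. Folds of both lists are printed together at several genes, without a common scale for depth. Only the summit reads recovered from them, in the closing section, are put on a scale shared between lists. Depth is not stated in the lists, which limits the precision of covered lengths.

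The 65 wild-type and 64 knockout regions outside chromosomes 1 to 19, X and Y were left out. Gene positions came from the RefSeq table of GRCm38.p6, where all 9 symbols matched. Starts came from the RefSeq promoter table for Itga4, Itgb1, Itga1 and Itgb7. For Itgae, Cd69, Itgal, Itgb2 and Selplg the gene end with more coverage in both lists together was used, so it may not be the 5′ end. A region was said to lie at a start if it came within 1 kb. Calls used a pseudocount of 500 bp, and ratios printed for single genes have none. Members and gene lists were chosen with earlier results of these data known. The text names all members, coding genes within 5 kb of them, up to 4 genes per list with the largest difference, and the nearest gene in percent covered. Some genes under this rule are not reported here. Alternatives were other thresholds on q, equal list lengths, other windows, ratios, pseudocounts and overlaps. No test between genotypes was possible. The steps, run with SciPy 1.17.1, Matplotlib 3.10.9, pandas 2.3.3 and NumPy 2.4.6 under Python 3.11.15, were tested on simulated data.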

Additional observations from a re-analysis of the deposited data

How the results depend on the processing

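The count of members longer in the knockout was 8 under 6 of the alternative settings and 9 within 2.5 kb of the start. In that start window, 6707 of 14375 genes with coverage were longer. The count called longer was 7 under regions with a −log10 q of at least 5 or 10, the strongest 20000 regions of each list, 10 kb flanks, a pseudocount of 100 bp and without neighbouring coding genes, a setting added after seeing the data. It was 6 with no flank (without Itgal) and 5 at a ratio of 2 (without Itgal and Itgb2). Within 2.5 kb of the start the count was 4 (without Itga4, Itgb2 and Itgb7). Shares of all genes called were found only for the main setting and within 2.5 kb of the start. The counts called under the other settings therefore have no such share beside them. The median difference was 7098 bp with 10 kb flanks and 1396 bp within 2.5 kb of the start, and the length of the window itself differs between these settings. With the other 5 settings it ran from 4142 to 6082 bp. Itgb1 reversed within 2.5 kb of the start, where the knockout had 3 bp more, and it was shorter in the other 6 settings. The other members were longer in all 7 settings, Itga1 by only 10 bp with a −log10 q of at least 10 and with the strongest 20000 regions. Of 63 member values, 41 stayed within 1.5 times the main value, 21 moved further and 1 reversed. The share of wild-type regions shared stayed between 88.9 and 91.7% and that of knockout regions between 51.6 and 57.1%. No paired analysis was possible because each genotype had 1 library.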

Other observations

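Whole reads at a summit can be recovered from the deposited fold and p of a region, taking the fold as (reads + 1)/(background + 1) and a Poisson p. The step is an addition made with the data in view. In a random draw of 2000 regions of each list, 2000 wild-type and 2000 knockout regions gave a whole number within 0.001 of the deposited −log10 p. Regions with the lowest p were kept out of the draw, among them the wild-type start region of Itgb1. Most summits shared 1 background value, of 2.85 wild-type and 2.62 knockout reads, and no summit drawn held fewer than 10 reads.

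Summit reads of the region with the highest fold among those within 1 kb of each start are given per genome-wide background of each library. Their 95% Poisson intervals cover counting error only. The summits compared need not lie at the same place or at the start itself. At Itgb2 they lay 1231 bp (wild type) and 144 bp (knockout) inside the gene, and at Itga4 1865 and 1406 bp. At Cd69 the strongest start region had 53 wild-type reads (18.6 times background, 14.0 to 24.4) and 136 knockout reads (51.9, 43.6 to 61.4). At Itgal there were 14 reads (4.92, 2.69 to 8.26) and 84 reads (32.1, 25.6 to 39.7). At Itga4 there were 18 reads (6.33, 3.75 to 10.00) and 82 reads (31.3, 24.9 to 38.9). Itgb2 had 43 reads (15.1, 10.9 to 20.4) and 91 reads (34.8, 28.0 to 42.7). At these 4 genes the intervals did not overlap. Itgb7 had 95 reads (33.4, 27.02 to 40.8) and 130 reads (49.7, 41.5 to 59.0), whose intervals also did not meet. There the knockout summit had a background of 3.87 reads, above the genome-wide 2.62. The deposited folds of 25.0 (wild type) and 26.9 (knockout) were close, so the gap at Itgb7 depends on the background chosen. How often intervals fail to overlap over all genes was not found, so these cases have no share of all genes beside them. Intervals overlapped at Itga1, with 80 reads (28.1, 22.3 to 35.0) and 71 reads (27.1, 21.2 to 34.2). They overlapped too at Itgb1, with 183 reads (64.3, 55.3 to 74.3) and 140 reads (53.5, 45.0 to 63.1). Itgae and Selplg had no wild-type region within 1 kb of the start, and 45 and 77 reads in the knockout. Such a scale assumes that the background reflects depth alike in both libraries, and the spread between animals was not measured.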
